A study of Rattus norvegicus with 10 samples.

Results

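The genes described are the translation initiation and elongation factors of the rat, taken by symbol from the table of estimated counts: every symbol that begins with Eif and a digit from 1 to 6, or with Eef and 1 or 2, apart from the Eif2ak kinases and Eef2k. The rule gave 55 genes of the 17168 in the table, and all 55 passed the filter on low counts. The libraries hold left hippocampus RNA of 10 rats, all female and all TgF344-AD, a transgenic model of Alzheimer's disease whose transgenes are driven by the mouse prion promoter, killed at 11 months of age. All 10 animals carried the transgenes, so no wild-type animal enters the comparison. The untreated group of 5 animals received plain rodent chow. The RG2833 group of 5 received chow with 750 mg RG2833 per kg, an inhibitor of the histone deacetylases HDAC1 and HDAC3, for 6 months from 5 months of age. The labels number the animals within each group but give no batch, litter or cage, and the p-values measure the spread between these animals. The question was how long RG2833 treatment changes hippocampal transcript levels, here those of the translation machinery.

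Translation starts when eIF2, loaded with GTP and the initiator tRNA, joins the small ribosomal subunit together with eIF1, eIF1A, eIF3 and eIF5. The eIF4 proteins bind the cap of the mRNA, unwind its leader and bring the loaded subunit to it. After the start codon is found, eIF5B joins the large subunit, eEF1A delivers each aminoacyl-tRNA, the eEF1B complex recharges eEF1A with GTP, and eEF2 moves the ribosome along by a codon. Control falls mainly on 3 points: phosphorylation of the eIF2 alpha subunit, which blocks the exchange factor eIF2B, the capture of eIF4E by its binding proteins, and phosphorylation of eEF2. In hippocampal neurons these controls also act locally in dendrites, where new protein is needed for lasting synaptic change. Transcript levels, the only quantity measured here, show none of these phosphorylation states.

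Of the 55 genes, 4 passed the test across all genes, all lower in RG2833 animals: Eef1b2, Eif3k, Eif2s2 and Eif3m. Their promoters are shown because they are the members called, each on its own test. Each run is 100 bases, from 80 bases before to 20 bases from the annotated start onwards, from the RefSeq promoter table of build GRCr8. Capitals mark the core letters bound by ETS family transcription factors, CCGGAA or its reverse complement TTCCGG.
Eef1b2 (chr9:72074011-72074110, plus strand): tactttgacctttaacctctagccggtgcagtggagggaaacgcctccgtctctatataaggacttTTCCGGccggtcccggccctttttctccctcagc
Eif3k (chr1:93397468-93397567, minus strand): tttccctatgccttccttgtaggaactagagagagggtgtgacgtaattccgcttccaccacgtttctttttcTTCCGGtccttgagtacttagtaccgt
Eif2s2 (chr3:163855551-163855650, minus strand): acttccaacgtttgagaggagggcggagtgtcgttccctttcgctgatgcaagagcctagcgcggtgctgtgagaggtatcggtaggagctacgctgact
Eif3m (chr3:111897174-111897273, minus strand): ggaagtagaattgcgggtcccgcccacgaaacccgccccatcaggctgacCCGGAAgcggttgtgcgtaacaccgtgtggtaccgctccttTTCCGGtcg

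In the full window of 300 bases (250 before and 50 from the start onwards, searched on both strands), 3 of these 4 genes held CCGGAA. Among the members it was found in 24 of the 49 matched to the table (49.0%), and among 9464 tested genes matched in the same way in 27.4%. The YY1 core AAGATGG was found in 6 of the 49 members (12.2%), against 8.32% of the tested genes, and in 0 of the 4. The TATA box letters TATAAA were found in 3 of the 49 (6.12%), against 6.96%. Many mRNAs of the translation machinery begin with a C and a run of pyrimidines, the terminal oligopyrimidine tract. A sense-strand run of at least 5 bases, a C followed by at least 4 of C or T, lay within 10 bases either side of the annotated start in 16 of the 49 members (32.7%) and in 24.3% of the tested genes. It was present in 3 of the 4 genes that fell, Eef1b2, Eif3k and Eif3m. In the printed sequences none of these runs begins at the annotated start, and that of Eif3k lies wholly before it. The search is therefore wider than the definition of the tract. These matches describe letters in a window, and the starts are annotated, not measured in these animals.

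Eef1b2, Eif3k, Eif2s2 and Eif3m make 7.27% of the 55 genes, against 5.08% of all 11791 tested genes called in either direction and 2.67% called lower. Both shares moved with single animals: over the 10 fits that left out an animal, between 1 and 6 members and between 0.826% (without RG2833 replicate 5) and 13.1% (without untreated replicate 4) of all tested genes were called. Nothing particular to the members is read from these shares. No member was called higher (0 of 55, against 2.41% of all tested genes). At an unadjusted p under 0.05, 17 members passed, 12 lower and 5 higher, which is 30.9% of the members against 24.5% of all tested genes. Over the fits that left out an animal this count ran from 9 (without RG2833 replicate 5) to 20 (without untreated replicate 5). The share of all genes at that threshold in those fits is not given here. DESeq2's Wald test and limma-voom also called 0 members higher, whereas 2 (Eif4g3 and Eif2c1) were called higher without untreated replicate 4. The median of the log2 fold changes was -0.05 over the members and -0.00347 over all tested genes, and the members ran from -0.60 (Eif3k) to 0.41 (Eif4ebp2). In 35 of the 55 the fitted log2 fold change was below 0 (63.6%, against 50.6% of all tested genes). The groups did not overlap in 8 members, 7 lower and 1 higher, which is 14.5% of them against 7.27% of all tested genes. By direction, the background was 3.47% of all tested genes for lower and 3.8% for higher.

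**Figure D1:**
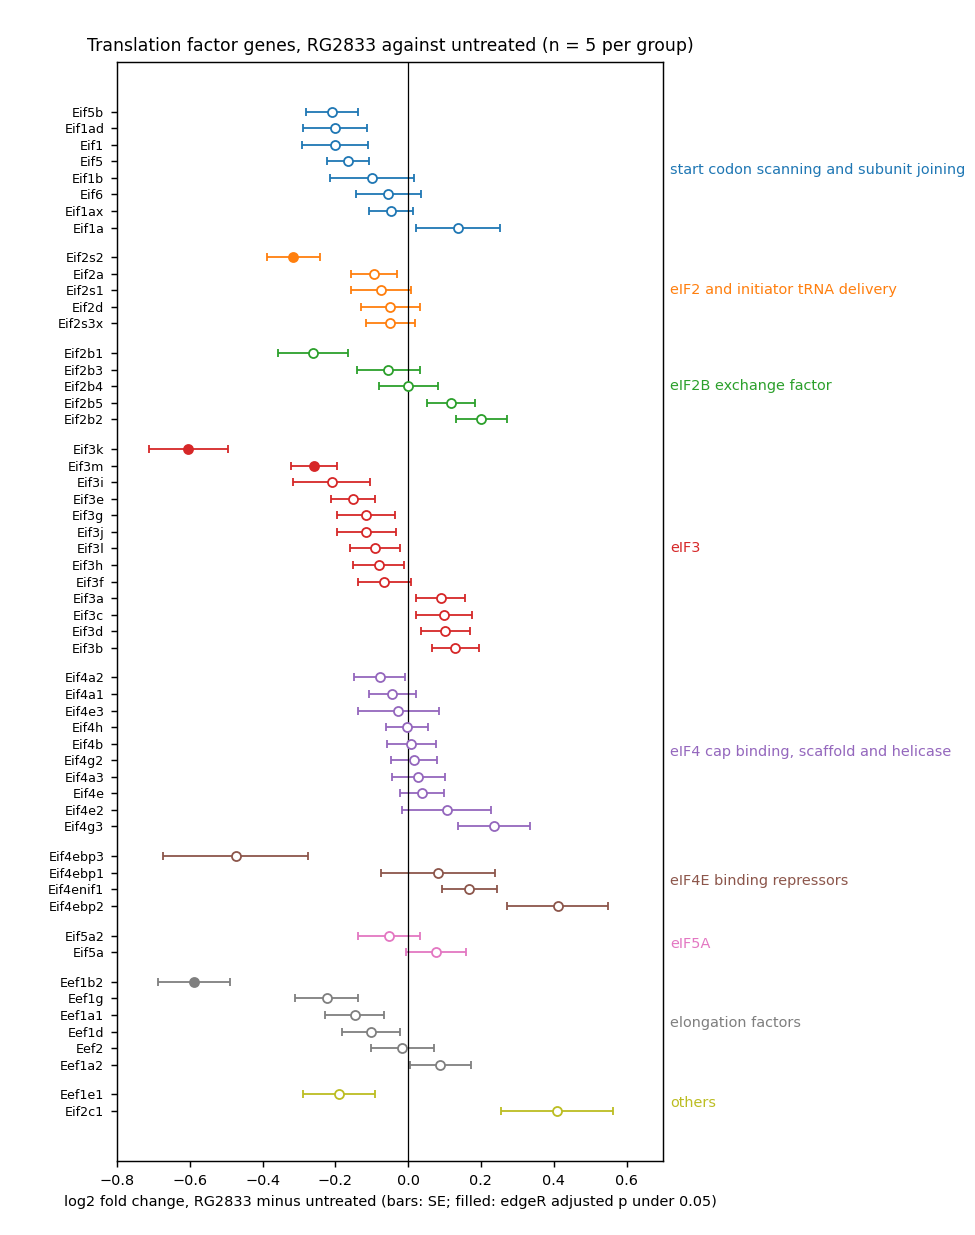
Log2 fold change of each of the 55 genes (x axis, RG2833 minus untreated, bars are the SE, n = 5 per group), in blocks by role. The 4 filled points, Eef1b2, Eif3k, Eif2s2 and Eif3m, passed the test and all lie left of 0.

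The libraries differed in ways that move with the groups. Ribosomal RNA loci took between 2.70% and 5.36% of counts in untreated and between 1.13% and 1.96% in RG2833 animals, so this share separates the groups completely. The summed level of 5 excitatory neuron markers (Slc17a7, Neurod6, Prox1, Grin2a and Camk2a) ran from 2204 to 3359 CPM in untreated and from 3596 to 4329 CPM in the RG2833 group, and all 5 had higher means there. Of these, Camk2a was called higher (log2 fold change 0.67 ± 0.17, SE; adjusted p = 0.0459). The 4 endothelial markers all had lower means, with sums of 148 to 236 CPM in untreated and 138 to 157 CPM in the RG2833 group. The summed astrocyte, microglial, oligodendrocyte and inhibitory neuron markers overlapped between the groups. Among the 5 microglial markers, 4 had lower means and Aif1 was called lower (log2 fold change -0.74 ± 0.20, SE; adjusted p = 0.0496). Choroid plexus markers summed to between 4.63 and 2433 CPM in untreated and between 4.01 and 41.2 CPM in the RG2833 group. The 2433 CPM came from untreated replicate 1 alone, since the other untreated animals reached at most 16.6 CPM. On the first principal component of all tested genes (34.7% of the variance), untreated replicate 4 scored 12.1, within the RG2833 range of 10.1 to 26.4, while the other untreated animals scored between -28.9 and -15.6. With the share of ribosomal RNA as a covariate, 0 members passed and 0 had an unadjusted p under 0.05. Only 2 of all 11791 tested genes (0.017%) were called in that fit. The share of all genes at the unadjusted threshold is not given here. Among the members and pathway genes named by rule, the sign of the log2 fold change turned in that fit for Eif1 (0.05), Eef2 (0.20), Eif4e (-0.02), Eif4g3, Eif2c1 and the kinase gene Eif2ak1 (-0.04), none of them called in either fit. For the 4 called genes the log2 fold changes in that fit were -0.26 (Eef1b2), -0.32 (Eif3k), -0.22 (Eif2s2) and -0.28 (Eif3m). Without the covariate they were -0.59, -0.60, -0.32 and -0.26. Because the ribosomal RNA share separates the groups completely, that fit cannot tell the share and the treatment apart. Nothing is read from these values. The part of the ribosomal RNA share and of the marker levels in the results below was not tested further. In bulk tissue, fewer cells of a type and less RNA per cell cannot be told apart.

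Among the elongation factors, Eef1b2 fell and the other 5 did not pass the test. Eef1b2 encodes the exchange subunit of the eEF1B complex, which replaces GDP by GTP on eEF1A. In untreated animals its level was 172, 182, 184, 136 and 136 CPM (replicates 1 to 5), and in RG2833 animals 103, 113, 103, 116 and 104 CPM. The groups did not overlap, and untreated replicates 4 and 5 lay nearest to the RG2833 animals. The mean of 162 ± 23.9 CPM fell to 108 ± 6.14 CPM (SD, n = 5), or 0.665 times the untreated level. The log2 fold change was -0.59 ± 0.10 (SE; adjusted p = 0.0114). The call held in all 10 fits that left out an animal, with log2 fold changes from -0.64 to -0.54 and an adjusted p of at most 0.0407. With the share of ribosomal RNA as a covariate the log2 fold change was -0.26 (adjusted p = 1.00).

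**Figure D2:**
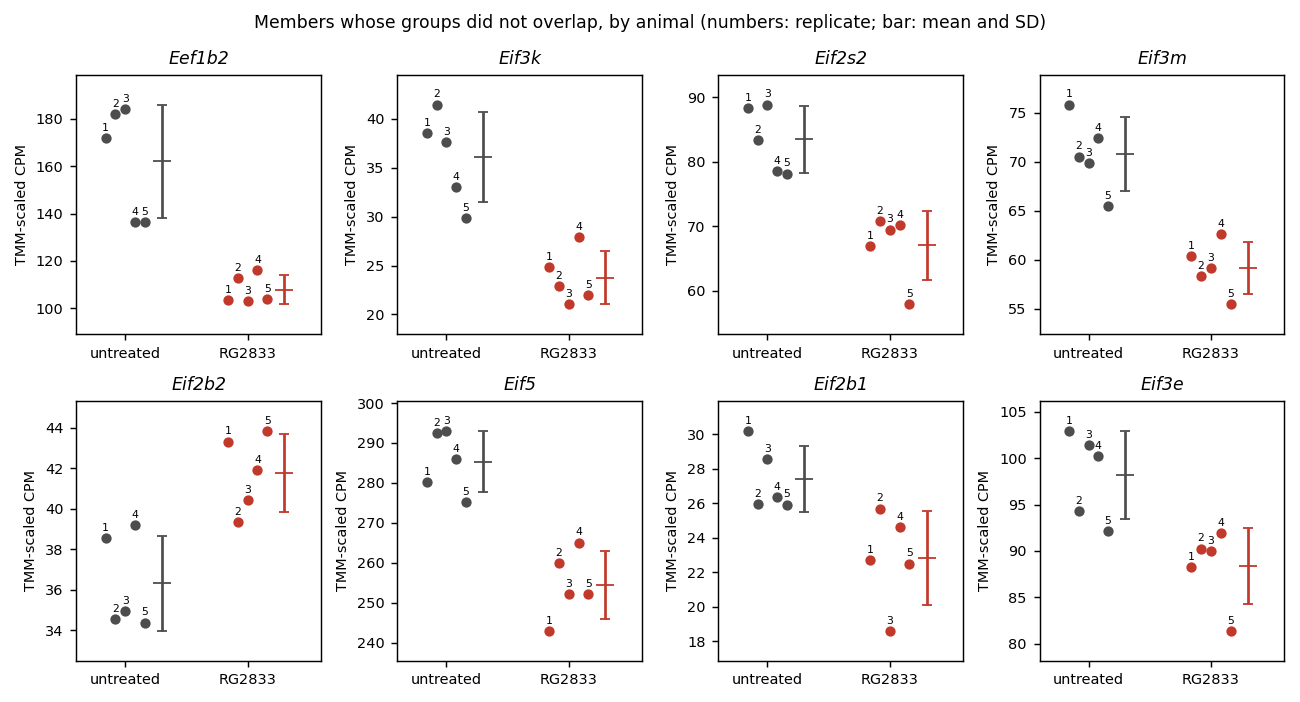
TMM-scaled CPM (y axes, which do not start at 0) of the 8 members whose groups did not overlap, with each animal as a numbered point and the mean and SD (n = 5) as a bar. Eef1b2, Eif3k, Eif2s2 and Eif3m passed the test, Eif2b2 is the only one of the 8 that is higher in RG2833 animals, and Eif5, Eif2b1, Eif2b2 and Eif3e did not pass.

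The other 2 subunits of the eEF1B complex measured here had smaller differences. Eef1g, the gamma subunit that anchors the complex, was at 439 ± 49.99 CPM in untreated and 376 ± 22.8 CPM in the RG2833 group (SD, n = 5; log2 fold change -0.22 ± 0.09, SE; adjusted p = 0.135). Eef1d, the delta subunit, which is a further exchange factor for eEF1A, was at 89.0 ± 8.77 and 82.9 ± 5.91 CPM (log2 fold change -0.10 ± 0.08; adjusted p = 0.459). All 3 subunits thus had lower means, and Eef1b2 alone was called; the difference between Eef1b2 and the other subunits was not tested.

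The eEF1A proteins carry aminoacyl-tRNA to the ribosome, and mature neurons and muscle are known to use eEF1A2 while most other cells use eEF1A1. Eef1a1 was at 4026, 4083, 3939, 3604 and 3344 CPM in untreated replicates 1 to 5 and at 3226, 3347, 3441, 3686 and 3460 CPM in RG2833 replicates 1 to 5. The groups overlapped, since untreated replicates 4 and 5 lay within the RG2833 range (log2 fold change -0.15 ± 0.08, SE; adjusted p = 0.284). Eef1a2 was at 1038, 989, 1257, 1062 and 1191 CPM in untreated and at 1277, 1112, 1109, 1191 and 1193 CPM in the RG2833 group. Its groups also overlapped (log2 fold change 0.09 ± 0.08; adjusted p = 0.551). Eef2, the translocation factor, was at 1609 ± 166 and 1591 ± 105 CPM (SD, n = 5; log2 fold change -0.02 ± 0.09; adjusted p = 0.925).

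The 13 subunits of eIF3, the largest initiation factor and the scaffold that holds the small ribosomal subunit, included 2 that fell, Eif3k and Eif3m. Over all tested genes 5.08% were called and 2.67% called lower, which is the background for calls in each role group. The other 11 did not pass. Eif3k, a peripheral subunit that pairs with eIF3l, was at 38.6, 41.5, 37.6, 33.0 and 29.8 CPM in untreated replicates 1 to 5. In RG2833 replicates 1 to 5 it was at 24.8, 22.9, 21.1, 27.9 and 21.97 CPM. Every RG2833 value lay below every untreated value, with untreated replicate 5 and RG2833 replicate 4 closest to each other. The log2 fold change of -0.60 ± 0.11 (SE; adjusted p = 0.0146) is 0.658 times the untreated level. The call was kept in 9 of the 10 fits that left out an animal and lost without RG2833 replicate 5 (log2 fold change -0.58, adjusted p = 0.0508). With the share of ribosomal RNA in the fit the log2 fold change was -0.32 (adjusted p = 1.00).

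Eif3m, the other eIF3 subunit gene called, was at 75.8, 70.5, 69.9, 72.4 and 65.5 CPM in untreated and at 60.4, 58.3, 59.1, 62.6 and 55.4 CPM in the RG2833 group. Its groups did not overlap (log2 fold change -0.26 ± 0.06, SE; adjusted p = 0.0392), a level 0.836 times that of untreated animals. The call was kept without untreated replicate 4 (adjusted p = 0.0352) or 5 (adjusted p = 0.0218). It was lost without any of the other 8 animals (adjusted p from 0.0569 to 0.109), with log2 fold changes between -0.29 and -0.23 over the 10 fits.

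Eif3e, which binds next to eIF3d on the complex, was the third eIF3 gene without overlap, at 92.1 to 103 CPM in untreated and 81.4 to 92.0 CPM in the RG2833 group. It did not pass (log2 fold change -0.15 ± 0.06, SE; adjusted p = 0.152). The partner of eIF3k, Eif3l, had a log2 fold change of -0.09 ± 0.07 (adjusted p = 0.435). Eif3f, Eif3g, Eif3h, Eif3i and Eif3j ran from -0.21 to -0.07 in log2 fold change, without a call (smallest adjusted p = 0.243). The 4 subunits with higher means were Eif3a, Eif3b, Eif3c and Eif3d, of which the first 3 encode large subunits of the complex. Their log2 fold changes were 0.09, 0.13, 0.10 and 0.10, and none passed (smallest adjusted p = 0.2299, for Eif3b; 0 of the 4 had an unadjusted p under 0.05).

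In eIF2, which binds the initiator tRNA, the beta subunit gene Eif2s2 fell. Its level was 88.3, 83.3, 88.9, 78.6 and 78.2 CPM in untreated replicates 1 to 5 and 67.0, 70.7, 69.5, 70.1 and 57.9 CPM in RG2833 replicates 1 to 5. The groups did not overlap, and RG2833 replicate 5 was the lowest animal. The log2 fold change was -0.32 ± 0.07 (SE; adjusted p = 0.0347), a level 0.804 times the untreated one. Eif2s2 stayed called without untreated replicate 4 (adjusted p = 0.0170) or 5 (adjusted p = 0.0249) and was lost without any of the other 8 animals (adjusted p from 0.0577 to 0.0878). Its log2 fold change ran from -0.34 to -0.27 over the 10 fits.

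The other subunits of eIF2 had smaller differences. Eif2s1, the alpha subunit whose phosphorylation slows initiation, was at 46.7 ± 3.62 CPM in untreated and 44.3 ± 3.98 CPM in the RG2833 group (SD, n = 5; log2 fold change -0.07 ± 0.08, SE; adjusted p = 0.6099). Eif2s3x, the gamma subunit that holds the initiator tRNA, changed by -0.05 ± 0.07 (log2; adjusted p = 0.696). Eif2a and Eif2d, separate proteins that can deliver initiator tRNA outside the eIF2 route, had log2 fold changes of -0.09 and -0.05 and did not pass (smallest adjusted p = 0.372).

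Among the 5 genes of eIF2B, which recharges eIF2 with GTP, 0 were called, 2 had an unadjusted p under 0.05 and these 2 pointed in opposite directions. Eif2b1, the alpha subunit, was at 30.2, 26.0, 28.5, 26.3 and 25.9 CPM in untreated and at 22.7, 25.7, 18.6, 24.6 and 22.5 CPM in the RG2833 group. Its groups were apart by little, with RG2833 replicate 2 just under the untreated values (log2 fold change -0.26 ± 0.10, SE; adjusted p = 0.1204). Eif2b2, the beta subunit, was at 38.6, 34.6, 34.9, 39.2 and 34.4 CPM in untreated and at 43.3, 39.3, 40.4, 41.9 and 43.8 CPM in the RG2833 group. Every RG2833 value lay above every untreated value, but untreated replicate 4 was nearly level with RG2833 replicate 2 (log2 fold change 0.20 ± 0.07; adjusted p = 0.102). Eif2b3, Eif2b4 and Eif2b5, the last of which carries the catalytic activity, had log2 fold changes of -0.05, 0.000112 and 0.12 (smallest adjusted p = 0.292).

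The 8 genes of start codon scanning and subunit joining held 0 calls, although 4 had an unadjusted p under 0.05, all lower in RG2833 animals. At that threshold 24.5% of all tested genes passed, which is the background for this and the other role groups. Eif5, whose protein triggers GTP hydrolysis on eIF2 at the start codon, was at 280, 292, 293, 286 and 275 CPM in untreated and at 243, 260, 252.1, 265 and 252.2 CPM in the RG2833 group. The groups did not overlap (log2 fold change -0.17 ± 0.06, SE; adjusted p = 0.108). Eif5b, the subunit joining factor, was at 259 to 308 CPM in untreated and 234 to 275 CPM in the RG2833 group (log2 fold change -0.21 ± 0.07; adjusted p = 0.0964). With DESeq2's Wald test both Eif5 and Eif5b passed (adjusted p = 0.00600 and 0.0274), in a test that called 10.9% of all tested genes.

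Eif1, the scanning factor that guards against wrong start codons, was at 494 ± 60.1 CPM in untreated and 430 ± 26.4 CPM in the RG2833 group (SD, n = 5; log2 fold change -0.20 ± 0.09, SE; adjusted p = 0.194). Eif1b, its close paralog, was at 148 ± 27.1 and 138 ± 11.5 CPM (log2 fold change -0.10 ± 0.11; adjusted p = 0.627). Eif1ad had a log2 fold change of -0.20 ± 0.09 (adjusted p = 0.179). Eif1a and Eif1ax, which encode forms of eIF1A, had log2 fold changes of 0.14 and -0.05, and Eif6, which keeps the ribosomal subunits apart, had one of -0.05 (smallest adjusted p of these 3 genes = 0.485).

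**Figure D3:**
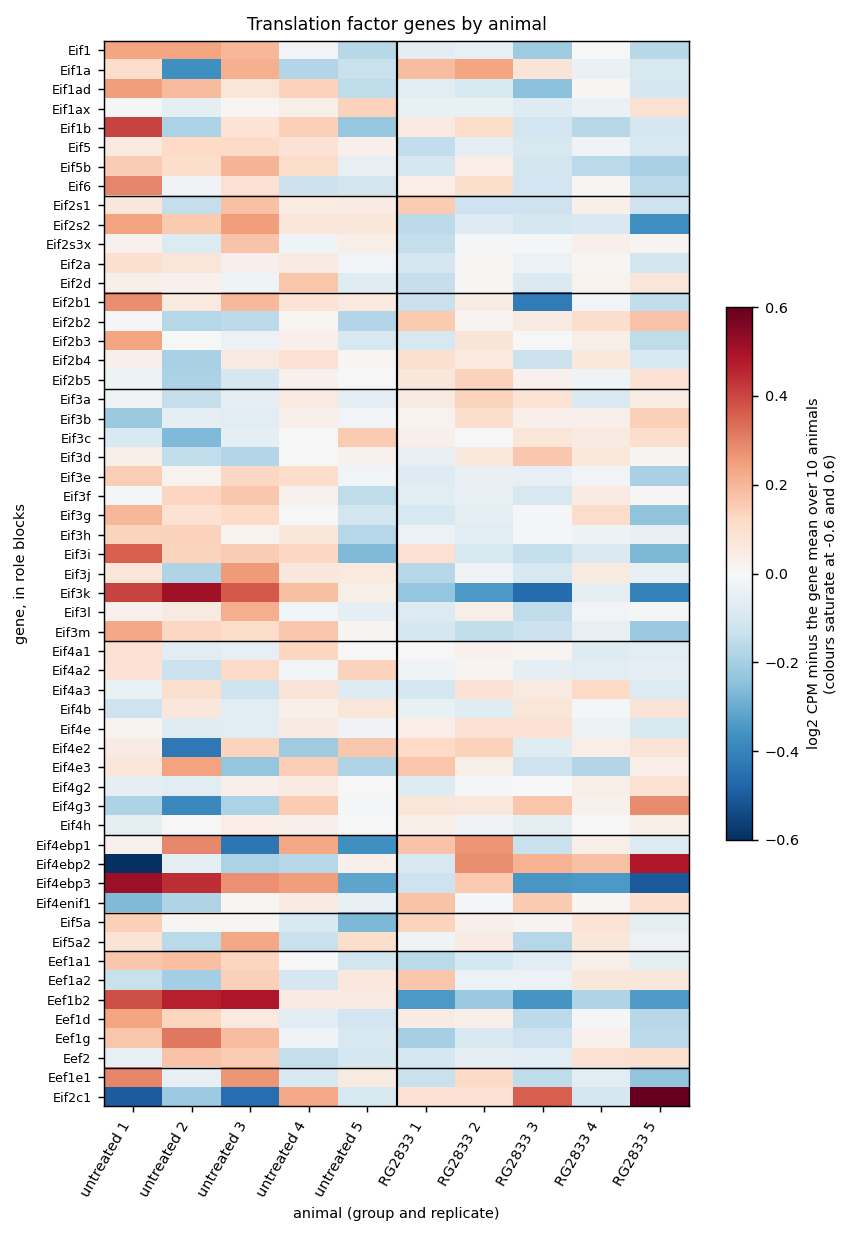
Log2 CPM of each member in each animal after subtraction of the gene's mean over the 10 animals (colour), with animals in columns and genes in role blocks in rows. Eef1b2, Eif3k, Eif2s2, Eif3m and Eif5 are above their means in all 5 untreated and below them in all 5 RG2833 animals. The eIF4 block shows little difference between the groups.

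The 10 genes of the cap-binding eIF4 group gave 0 calls, and 1 had an unadjusted p under 0.05. Eif4e, which encodes the cap-binding protein, was at 113 ± 4.07 CPM in untreated and 116 ± 6.22 CPM in the RG2833 group (SD, n = 5; log2 fold change 0.04 ± 0.06, SE; adjusted p = 0.737). The RNA helicase genes Eif4a1 and Eif4a2 had log2 fold changes of -0.04 ± 0.07 and -0.08 ± 0.07 (smaller adjusted p of the pair = 0.517), and Eif4a3, the helicase of the exon junction complex, one of 0.03 ± 0.07. Eif4h and Eif4b, cofactors of the helicase, had log2 fold changes of -0.00337 and 0.00828 and were among the least changed members. Eif4g2, a relative of the scaffold eIF4G without the part that binds eIF4E, had one of 0.02 ± 0.06. Eif4e2 and Eif4e3, relatives of the cap-binding protein, had log2 fold changes of 0.11 ± 0.12 and -0.03 ± 0.11 (smaller adjusted p = 0.628).

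Eif4g3, which encodes an eIF4G scaffold, had the smallest p of the eIF4 group. It was at 244, 213, 244, 309 and 277 CPM in untreated and at 293, 291, 312, 283 and 339 CPM in the RG2833 group. Untreated replicate 4 was within the RG2833 range, so the groups overlapped (log2 fold change 0.24 ± 0.10, SE; adjusted p = 0.164). Without untreated replicate 4 it passed (log2 fold change 0.31, adjusted p = 0.0389), and with the ribosomal RNA share in the fit its sign turned (-0.11, adjusted p = 1.00). The excitatory neuron marker sum, unlike Eif4g3, did not overlap between the groups, and its part in the difference in Eif4g3 was not tested. Eif4g1 was not analysed here.

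The repressors that hold eIF4E away from eIF4G gave 0 calls among 4 genes, with 3 at an unadjusted p under 0.05 and mixed directions. Eif4ebp2, the form known as the main binding protein of the brain, was at 9.495, 14.4, 13.2, 13.3 and 15.3 CPM in untreated and at 14.02, 18.2, 17.4, 17.0 and 20.9 CPM in the RG2833 group. Untreated replicates 2 and 5 were above the lowest RG2833 animal, so the groups overlapped (log2 fold change 0.41 ± 0.14, SE; adjusted p = 0.0961). Eif4ebp1 was at 11.9 ± 2.68 and 12.5 ± 1.46 CPM (SD, n = 5; log2 fold change 0.08 ± 0.16; adjusted p = 0.786). Eif4ebp3 had the lowest counts of all members, between 23 and 47 per library, and a log2 fold change of -0.47 ± 0.20 (adjusted p = 0.166). Eif4enif1, the transporter of eIF4E into the nucleus, changed by 0.17 ± 0.08 (log2; adjusted p = 0.198).

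Eif5a and Eif5a2 encode the factor that carries the modified amino acid hypusine and relieves stalled ribosomes. Eif5a was at 475 ± 49.3 and 501 ± 24.5 CPM and Eif5a2 at 96.4 ± 11.1 and 92.9 ± 5.90 CPM in untreated and RG2833 animals (SD, n = 5), and neither passed (adjusted p = 0.597 and 0.736). The symbols Eif2c1 and Eef1e1 match the rule although neither product belongs to the factor that its symbol names. Eif2c1 is an older symbol of Ago1, an Argonaute of the microRNA pathway. It was at 34.7, 42.2, 35.7, 57.3 and 46.0 CPM in untreated and at 52.0, 52.3, 62.8, 45.7 and 74.1 CPM in the RG2833 group (log2 fold change 0.41 ± 0.15, SE; adjusted p = 0.129). The groups overlapped through untreated replicates 4 and 5. Without untreated replicate 4 it passed (log2 fold change 0.53, adjusted p = 0.0281), and with the ribosomal RNA share in the fit its sign turned (-0.02, adjusted p = 1.00). Eef1e1, a subunit of the aminoacyl-tRNA synthetase complex, changed by -0.19 ± 0.10 (log2; adjusted p = 0.251).

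Paralogs with related roles were compared within each animal as the log2 ratio of their CPM values, with a pseudocount of 0.5. A ratio within a library does not depend on library scaling, and because transcript lengths are not corrected for, only its difference between groups is meaningful. For Eef1a2 against Eef1a1 the ratio was -1.96, -2.04, -1.65, -1.76 and -1.49 in untreated and -1.34, -1.59, -1.63, -1.63 and -1.54 in RG2833 animals. Untreated replicate 5 lay inside the RG2833 range, and the difference of 0.24 did not pass (two-sided exact permutation test, p = 0.0873, adjusted over 5 pairs p = 0.437). Without untreated replicate 5 the difference was 0.31 (adjusted p = 0.0397, exact permutation test), and without any of the other 9 animals it did not pass (0.17 to 0.27, adjusted p from 0.347 to 0.675).

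For the other 4 pairs the differences between the groups were smaller than the pooled SD within groups. They were -0.03 for Eif4a2 against Eif4a1, 0.08 for Eif4e2 against Eif4e, -0.13 for Eif5a2 against Eif5a and 0.11 for Eif1b against Eif1. Of the 5 pairs, 0 had an unadjusted exact permutation p under 0.05.

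**Figure D4:**
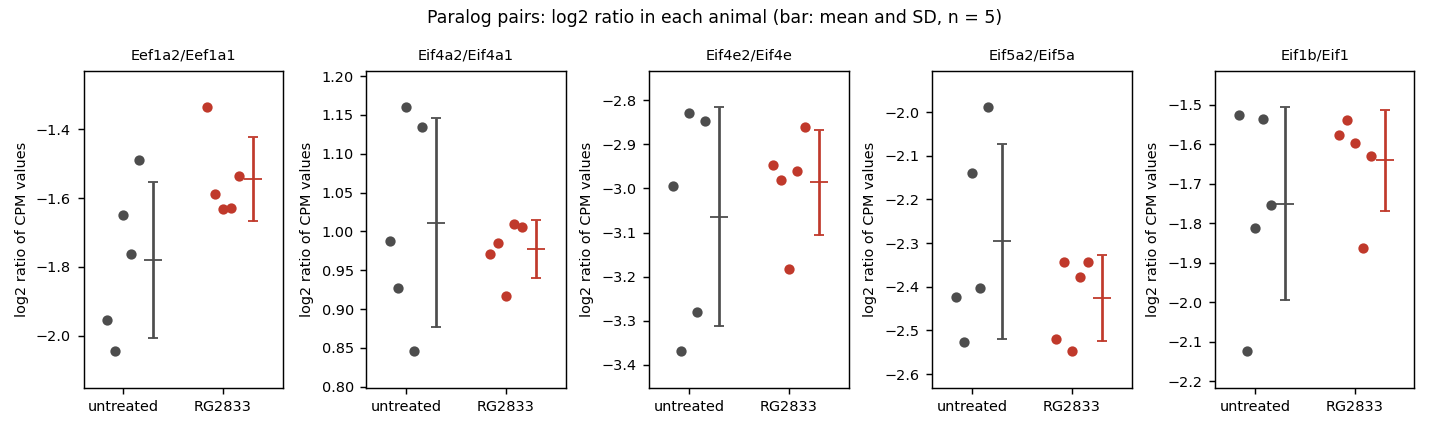
Log2 ratio of the CPM values of 2 paralogs in each animal (points), with the mean and SD (bar, n = 5), for 5 pairs; each panel has its own y axis. The groups overlap in every panel, and the Eef1a2/Eef1a1 panel shows the largest difference, 0.24.

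Some of these estimated counts may include reads from copies. The RefSeq gene table of build GRCr8 names 121 pseudogenes of 33 of the 55 members, among them 20 of Eef1a1, 16 of Eef1g, 3 of Eef1b2, 3 of Eif3k, 1 of Eif2s2 and 1 of Eif3m. By symbol, 0 of these 121 pseudogenes had a row of their own in the count table. How reads shared with such copies were assigned is not given in the sources used here, so the levels of these genes, and the ratio of Eef1a2 to Eef1a1, are uncertain to that extent.

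The animals can also be described by the median over the 55 members of log2 CPM centred per gene. It was 0.07, -0.00183, 0.08, 0.04 and -0.02 in untreated and -0.04, 0.02, -0.07, 0.00524 and -0.06 in RG2833 animals, so the groups overlapped. For the eIF3 block the medians ran from -0.0153 to 0.12 in untreated and from -0.07 to -0.0159 in RG2833 animals, so the groups met without overlap. The eIF2 block did not overlap either, with 0.03 to 0.17 in untreated and -0.14 to 0.02 in RG2833 animals. In the other 7 of the 9 role blocks the groups overlapped. The 2 blocks without overlap hold the called genes Eif2s2, Eif3k and Eif3m. How often blocks of other genes separate was not tested, so nothing particular to these blocks is read from this. For the elongation factors the medians were 0.16, 0.18 and 0.15 in untreated replicates 1 to 3 but -0.04 and -0.10 in untreated replicates 4 and 5, which lay within the RG2833 range of -0.13 to 0.03. The members together took 1.44 ± 0.0364% of all counts in untreated and 1.37 ± 0.0271% in RG2833 animals (SD, n = 5), with overlapping ranges of 1.397% to 1.48% and 1.33% to 1.404%.

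A list of 55 further genes of the pathway, outside the Eif and Eef families except for their kinases, gave 48 tested genes. Of these, 1 was called higher and 1 lower (4.17%, against 5.08% of all tested genes), with a median log2 fold change of 0.02 against -0.00347 over all tested genes. The kinases that phosphorylate eIF2 alpha, Eif2ak1 (which senses heme), Eif2ak2 (double-stranded RNA), Eif2ak3 (unfolded protein in the endoplasmic reticulum) and Eif2ak4 (uncharged tRNA), had log2 fold changes of 0.17, -0.09, 0.05 and -0.02 (smallest adjusted p = 0.2299). Eef2k, the kinase that inhibits eEF2, changed by 0.01 ± 0.12 (log2, SE; adjusted p = 0.953). Mtor, the growth kinase upstream of the eIF4E binding proteins, was at 110 and 107 CPM (log2 fold change -0.04 ± 0.09; adjusted p = 0.8286). Pabpc1, which binds the poly(A) tail and eIF4G, changed by 0.09 ± 0.08 (adjusted p = 0.507).

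Asns, the asparagine synthetase gene and a target of the transcription factor ATF4 when eIF2 alpha is phosphorylated, rose. It was at 85.2, 67.5, 70.8, 92.2 and 84.2 CPM in untreated and at 111, 99.2, 102, 106 and 104 CPM in the RG2833 group, with no overlap (log2 fold change 0.38 ± 0.09, SE; adjusted p = 0.0328). Of the other genes of that class, Atf4 (0.02 ± 0.08), Ddit3 (-0.05 ± 0.12) and Chac1 (0.06 ± 0.13) did not pass (log2 fold changes; smallest adjusted p = 0.8302), and Trib3 was below the filter. Mtif2, the initiation factor of mitochondrial ribosomes, fell from 27.8, 22.1, 22.8, 21.7 and 23.0 CPM to 19.5, 17.75, 18.1, 18.9 and 17.4 CPM (log2 fold change -0.36 ± 0.09; adjusted p = 0.0427), while the other 5 mitochondrial factors did not pass. Both calls were kept without untreated replicate 4 or 5 and lost without any of the other 8 animals, with an adjusted p of 0.0529 to 0.0876 for Asns and 0.0620 to 0.112 for Mtif2. With the share of ribosomal RNA as a covariate the log2 fold change was 0.08 for Asns and -0.42 for Mtif2 (adjusted p = 1.00 each).

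**Figure D5:**
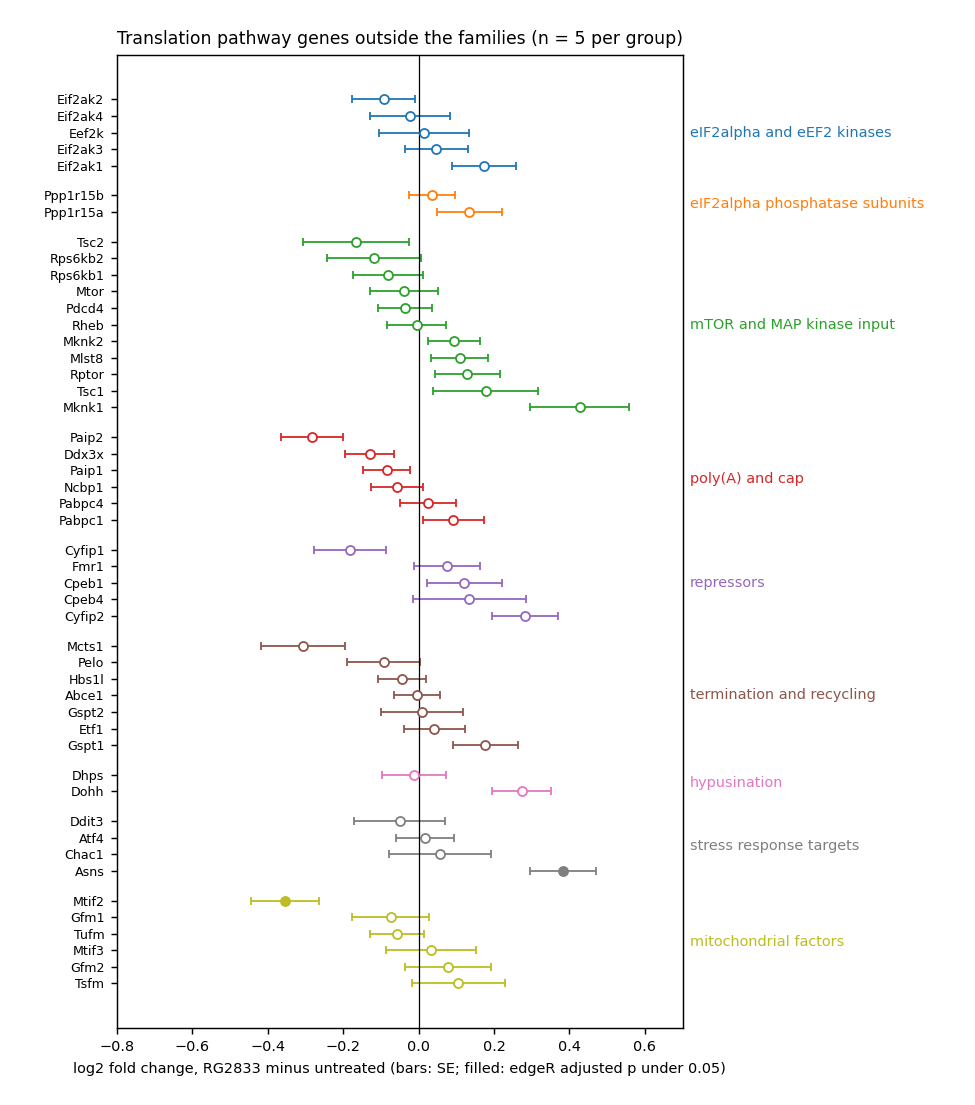
Log2 fold change (x axis, RG2833 minus untreated, bars are the SE, n = 5 per group) of the 48 tested genes of the pathway list, in blocks by class. Asns (0.38) and Mtif2 (-0.36) are the 2 filled points, and the kinases of eIF2 alpha and eEF2 lie between -0.09 and 0.17.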

How the data were processed

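The authors deposited estimated counts per gene symbol, which are not whole numbers, and a normalized signal (CPM after TMM scaling), as the names of the deposited tables say. The submitters' processing notes name Bowtie2 2.1.0, RSEM 1.2.15, edgeR and the build rn6, with no roles. The annotation is not given in the sources used here. Of the 17168 symbols, 2540 had no count once rounded.

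The estimated counts were rounded, and edgeR's filterByExpr, given the groups, removed low genes. RG2833 was compared with untreated animals in edgeR 4.0.16 under R 4.3.3 by the quasi-likelihood test, with all 10 libraries, TMM scaling and no covariate. Adjusted p-values are Benjamini-Hochberg values over all 11791 tested genes, and values under 0.05 count as calls. CPM values are TMM-scaled, and each SE was derived from the log2 fold change and the root of its F value. Total counts ran from 8764266 to 11311673 per library, and 3 counts correspond to between 0.265 and 0.342 CPM. Paralog ratios were tested by exact permutation (two-sided), whose smallest p-value is 0.00794. The code was tested on simulated data.

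The members, the role groups and the lists were chosen with earlier results of these data known. The genes named were all members called, all members whose groups did not overlap, the member with the smallest p in each role group and 13 fixed symbols, of which Eif4g1 was not analysed here. Outside the families they were the called genes and 8 fixed genes. Other genes named were chosen after their values were seen. Alternatives were other scalings, filters and thresholds, DESeq2 1.42.0, limma 3.58.1 (voom, and trend on the deposited signal), a replicate block, the ribosomal RNA share as a covariate and the omission of each animal. A marker gene of the fixed lists is not reported here and was left out of its sum.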

Additional observations from a re-analysis of the deposited data

Results flagged for a closer look

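In 2 of 82 groups of 5 values (named genes, paralog ratios, total counts, and the ribosomal RNA and translation factor shares), the gap between 1 animal and its nearest neighbour exceeded Dixon's 95% limit (0.71 of the range); chance gives about 1 in 20, here 4.1. For Mtif2, untreated replicate 1 had 27.8 CPM, and the remaining untreated animals had 21.7 to 23.0 CPM (gap over range 0.793). The log2 ratio of Eif1b to Eif1 was -1.86 in RG2833 replicate 4, against -1.63 to -1.54 in the other RG2833 animals (gap over range 0.7196).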

How the results depend on the processing

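The count of 4 translation factor genes called was 3 to 6 under the other scalings, filters, tests and threshold (3 with no filter on low counts, where 3.21% of all genes were called, and 6 with DESeq2's Wald test, where 10.9% were), 2 with the replicate block (Eef1b2 and Eif3k; Eif2s2 and Eif3m had an adjusted p of 0.0661 and 0.0801, with log2 fold changes of -0.32 and -0.26 as without the block) and 0 under a covariate for ribosomal RNA share. It ran from 1 to 6 over the fits that left out an animal; the 6 came without untreated replicate 4 (Eif4g3 and Eif2c1 added) and the 1 (Eef1b2) without RG2833 replicate 5. The count of 2 pathway genes was 1 with no filter on low counts, 6 with DESeq2's Wald test, 6 at an adjusted p under 0.1, 1 with the replicate block and 0 with the ribosomal RNA share (2 at an unadjusted p under 0.05), and 0 to 5 without an animal. The share of all tested genes at an adjusted p under 0.1 is not given here, so counts at that threshold have no background. The median log2 fold change of the translation factors ran from -0.07 to -0.04 over all alternatives. The count of paralog pairs past the threshold, 0, stayed 0 with other pseudocounts, the deposited signal and the replicate block and was 0 to 1 without an animal. Same-numbered animals share only a number (their deviations from group means correlated at -0.297 to 0.13), so the replicate block is not a pairing. With the covariate for ribosomal RNA share 2 of all tested genes were called, and with the replicate block 180 in place of 599; the cause was not tested. For single genes and pairs, 730 values under alternatives gave 681 on the same side of the threshold, 44 no longer past it, 5 newly past it and 0 with a call in the other direction. At these depths Eif4ebp3, with at most 47 counts, has the widest error of the members.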
